A study of Mus musculus with 32 samples.

Results

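Mouse precursor B-cell leukemias were compared between 6 Pax5+/- Myd88+/- mice and 6 Pax5+/- mice, which carry both Myd88 alleles. They are 12 of the 32 arrays of the study and were chosen by the genotype and disease state in their titles. Each array holds total RNA of leukemic bone marrow from 1 diseased mouse, hybridized to an Affymetrix mouse gene array. All values below are log2 array levels, so that a difference of 1 is a 2-fold change, and every difference is Pax5+/- Myd88+/- minus Pax5+/- unless stated otherwise.

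Both groups lack 1 allele of Pax5, so that the genotypes differ by 1 allele of Myd88 alone. The mice were on a mixed C57BL/6 and CBA background and of both sexes. They were bred in a specific pathogen-free area and were moved at 2 months of age to a conventional facility with common pathogens, where the leukemias arose. No drug or other treatment was given. Ages at disease, blast shares and the day of hybridization were not given for single arrays in the sources used here. The Pax5+/- Myd88+/- mice lacked 1 Myd88 allele in all of their cells, and the marrow was not stated in the labels to be sorted, so that the level in the blasts and in other marrow cells cannot be told apart. For comparison, 4 arrays of proB and preB cells sorted from healthy wild-type (WT) marrow were used, as were 16 arrays of proB cells grown from healthy mice in culture with IL7 on stromal feeder cells. The cultures had 4 arrays for each of 4 genotypes, namely WT and Pax5+/- with both, a single or no functional Myd88 allele.

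Myd88 is the adaptor that binds the inner domain of most Toll-like receptors (TLRs) and of the IL1 receptor family. It gathers the IRAK kinases, and through TRAF6 these start the NF-kB and MAP kinase cascades. Pax5 holds precursor B cells to the B lineage, and mice with 1 functional allele can develop B-cell acute lymphoblastic leukemia after exposure to infection. The comparison asks how leukemias that arose with 1 Myd88 allele differ in their transcripts from those that arose with both.

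The targeted gene differed by label. Myd88 lies on chromosome 9 at 119335934 to 119340018 of GRCm38.p6, on the minus strand. The 250 bases before its transcription start (chr9:119340019-119340268, minus strand, RefSeq) are printed because this is the start of the gene whose dose defines the groups.
Myd88 promoter: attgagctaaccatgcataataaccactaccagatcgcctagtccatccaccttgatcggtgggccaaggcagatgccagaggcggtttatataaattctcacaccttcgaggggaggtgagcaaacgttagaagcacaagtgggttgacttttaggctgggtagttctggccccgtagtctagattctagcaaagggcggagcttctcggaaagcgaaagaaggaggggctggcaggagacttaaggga

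Myd88 read 8.86, 9.26, 8.70, 9.39, 8.52 and 8.26 in the 6 Pax5+/- Myd88+/- leukemias and 9.87, 10.38, 10.02, 10.14, 10.06 and 10.30 in the 6 Pax5+/- leukemias. The groups did not overlap, and the Pax5+/- leukemias lay at the level of the sorted WT cells (mean 10.08, n = 4). Cultured cells with both Myd88 alleles were lower than that, with means of 9.46 in WT and 9.28 in Pax5+/- cultures (n = 4 each). The difference was -1.30 ± 0.18 (SE; adjusted p = 0.00024 by limma; two-sided exact permutation p = 0.00216). The linear level was therefore 40.7% of that in Pax5+/- leukemias, with a 95% confidence interval of 31.0% to 53.4%. In the proB cultures the same pair of genotypes differed by -0.63, or 64.5% (exact permutation p = 0.0286, the smallest that 4 against 4 allows). The leukemia difference exceeded that of the cultures by -0.66 ± 0.23, which did not pass the adjusted threshold (adjusted p = 0.0625). Of the 10 genes on each side of Myd88 in the RefSeq order, 15 were measured and none was called. At p under 0.05 before adjustment 2 were lower and 2 higher, beside 4084 and 3713 of all 19938 genes.

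**Figure D1:**
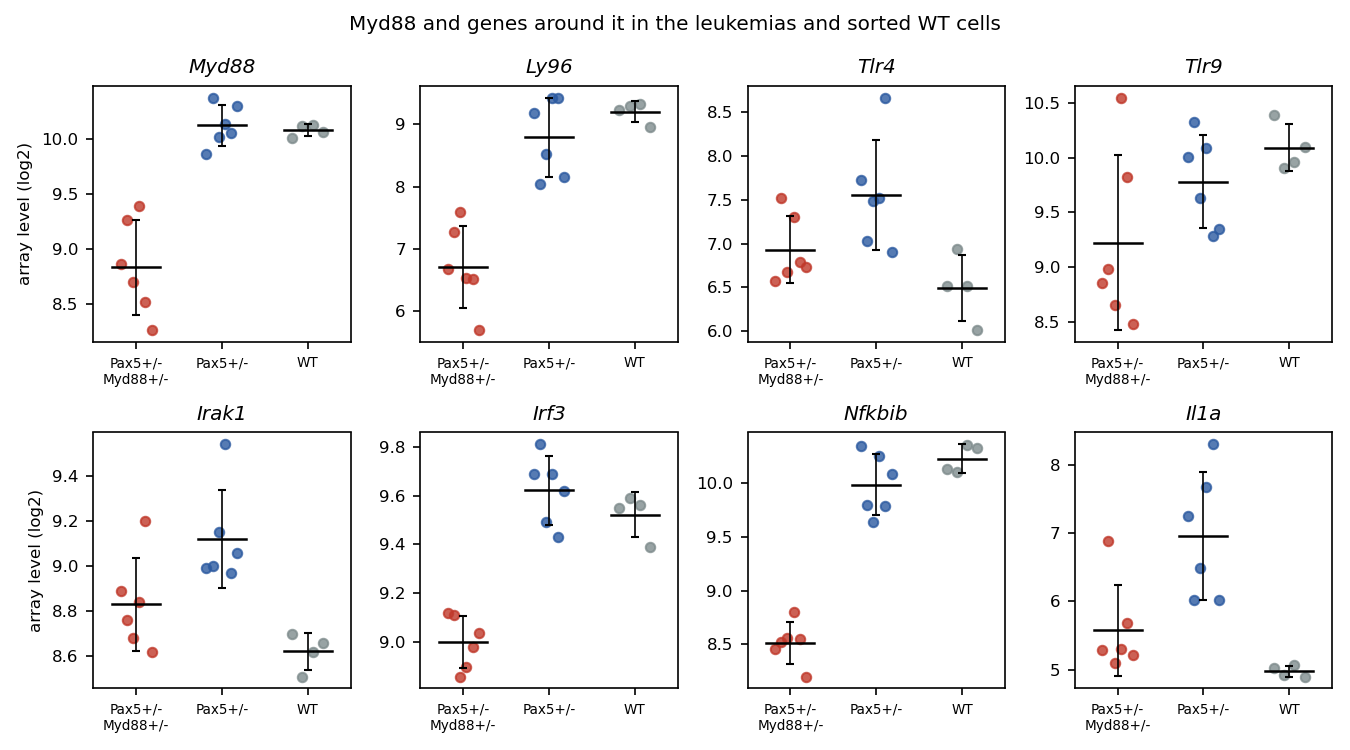
Array level (log2) of Myd88 and of 7 genes of its pathway, a panel each, in Pax5+/- Myd88+/- leukemias (red, n = 6), Pax5+/- leukemias (blue, n = 6) and sorted WT cells (grey, n = 4). Points are arrays, lines are means, bars are SD, and each panel has its own scale. Myd88, Ly96, Irf3 and Nfkbib do not overlap between the leukemia groups, whereas Tlr4, Tlr9, Irak1 and Il1a do.

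A gene was called where the adjusted p was under 0.05 and the difference over 1, and over 1 probeset for each of 19938 genes this was met by 592 genes (2.97%), 74 higher (0.371%) and 518 lower (2.6%). Of 42 genes measured in the TLR and IL1 receptor list, 2 were called lower and 0 higher, and the median difference was -0.19, beside 0 over all genes. Myd88 itself is 1 of the 2. The count of genes called lower was 6 without Pax5+/- replicate 6, 4 without Pax5+/- Myd88+/- replicate 2, and 5 with all 32 arrays in the fit.

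Ly96 was the other called gene. It encodes MD-2, the partner of TLR4 that binds endotoxin. Ly96 ranged from 5.70 to 7.59 in Pax5+/- Myd88+/- leukemias and from 8.04 to 9.43 in Pax5+/- leukemias, without overlap, a difference of -2.08 ± 0.34 (adjusted p = 0.00084). Sorted WT cells were at 9.20, whereas cultured WT cells, also with both Myd88 alleles, were at 6.77 and the 16 cultures at 6.28 to 8.21. Cd14, which hands endotoxin to this complex, differed by -0.07 (95% interval -0.73 to 0.59), and Tlr4 by -0.63 (95% interval -1.23 to -0.02, adjusted p = 0.109).

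The other receptors overlapped between the groups. Tlr9, a receptor of bacterial DNA, differed by -0.56 ± 0.34 and Tlr7, a receptor of RNA, by -0.18 ± 0.34. Tlr13, a receptor of bacterial ribosomal RNA, had the largest uncalled difference of the receptors, -1.58 ± 0.64 (adjusted p = 0.0827), and ran from 5.44 to 8.24 against 6.51 to 9.47. Il18r1, which binds IL18, varied most, from 5.94 to 11.09 in the first group and from 5.65 to 11.50 in the second.

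Within the TLR and IL1 receptor list no gene downstream of Myd88 was called. Irak1, the kinase that Myd88 recruits, differed by -0.29 (95% interval -0.54 to -0.03, adjusted p = 0.0847), and Traf6, the ubiquitin ligase after it, by -0.25 (95% interval -0.60 to 0.10). Some genes of the whole list, downstream of Myd88 or not, passed the adjusted p but not the 2-fold rule. They are named here after their values were seen. Irf3, a transcription factor of the interferon branch, was lower by 0.62 units (adjusted p = 8.33e-05) without overlap. Tab2, a partner of the kinase TAK1, was at -0.31 (adjusted p = 0.00186) and Tbk1, the kinase of Irf3, at 0.56 (adjusted p = 0.000923). In all, 6 of the 42 genes were lower and 1 higher by adjusted p alone, beside 2957 and 2516 of all 19938 genes.

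In the NF-kB list of subunits, kinases and inhibitors, 1 of 16 measured genes was called. Nfkbib, which encodes the inhibitor IkB-beta, was at 8.46, 8.52, 8.56, 8.80, 8.55 and 8.20 against 10.35, 9.80, 9.64, 10.25, 9.79 and 10.09, a difference of -1.47 ± 0.13 (adjusted p = 1.2e-05). It did not overlap and was lower in each of the 6 Pax5+/- Myd88+/- leukemias than in any Pax5+/- leukemia. Sorted WT cells were at 10.23 and cultured WT cells at 8.29. Nfkbia, the inhibitor that NF-kB itself induces, differed by -0.19 (95% interval -0.93 to 0.54). Of 29 cytokines and other genes that NF-kB induces, 2 were called lower and 0 higher, Il1a at -1.38 ± 0.43 and Gadd45b at -1.03 ± 0.30, both with overlapping groups. No member of this list was called without replicate 1 or without replicate 3 of the Pax5+/- Myd88+/- leukemias. The Il1a call was lost in 7 of the 12 fits that left out 1 leukemia and that of Gadd45b in 5. Of 35 interferon response genes 1 was called higher, Gbp7 at 1.18, and 1 lower, Ifitm3 at -1.35, and these calls were lost in 8 and 6 such fits.

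Calls in the lists of the B-cell program stand beside 592 of all 19938 genes (2.97%). Of 27 B-lineage transcription factors 1 was called, of 21 genes of the pre-B-cell receptor and its signaling 0, of 28 genes that Pax5 activates 0 and of 22 stage receptors 0. At p under 0.05 before adjustment, 2 pre-B-cell receptor genes were lower and 3 higher, 2 genes that Pax5 activates were lower and 1 higher, and 1 stage receptor lay on each side. Over all 19938 genes the counts at this threshold were 4084 lower and 3713 higher. Pax5 ranged from 9.07 to 11.95 and from 7.69 to 12.29, a difference of -0.20 whose 95% interval ran from -1.84 to 1.44, and its sign turned when replicate 5 of the first group (0.14) or replicate 3 (0.01) or 6 (0.06) of the second was left out.

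Id2 was the called transcription factor. It encodes an inhibitor of E proteins that Pax5 is known to repress. Id2 was at 7.64 to 10.20 in Pax5+/- Myd88+/- leukemias and at 10.65 to 12.14 in Pax5+/- leukemias, without overlap, a difference of -2.37 ± 0.39 (adjusted p = 0.000803). Sorted WT cells were at 10.55 and the 16 cultures at 6.09 to 7.03. Nkg7, another gene that Pax5 represses, was at -1.69 and lost its call in 7 of the 12 fits that left out 1 leukemia.

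Dntt was called among 14 genes of V(D)J recombination. It encodes terminal transferase, which adds bases at the joints. Dntt was at 11.01, 9.65, 10.23, 7.52, 10.78 and 10.18 in Pax5+/- Myd88+/- leukemias and at 8.60, 5.19, 7.47, 5.18, 9.72 and 8.15 in Pax5+/- leukemias. In the cultures the same genotype pair differed the other way (-2.31, adjusted p = 0.00289). The leukemia groups overlapped, since replicate 4 of the first group lay below 3 of the second, and the difference of 2.51 lost its call in 8 of the 12 fits that left out 1 leukemia. Rag1, which cuts the gene segments, differed by 0.75 (adjusted p = 0.673).

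Of 27 genes of IL7 receptor, JAK-STAT and RAS signaling, 1 was called. Socs1, the feedback inhibitor of JAK kinases, was at 7.58 to 7.78 against 8.02 to 9.99, without overlap, a difference of -1.07 ± 0.25 (adjusted p = 0.00798) that fell to -0.82, under the 2-fold rule, without Pax5+/- replicate 4. Jak1, a kinase of the IL7 receptor, was at 11.26 to 12.62 against 10.97 to 11.27, a difference of 0.56 (95% interval 0.12 to 1.00, adjusted p = 0.0568). Pax5+/- Myd88+/- replicate 1 had the highest Jak1 level of the 12. Ptpn11 differed by -0.27 (95% interval -0.59 to 0.05) and Nras by -0.06 (95% interval -0.18 to 0.06).

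The calls over the array numbered 1054 of 28944 probesets (3.64%), with 359 on the higher side (1.24%) and 695 on the lower side (2.4%), and by p before adjustment with the same 2-fold rule 1150 passed (3.97%). The leukemia groups did not overlap in 14.3% of all probesets and in 12.5% of genes. The gene families that follow were defined after these values had been seen, and their counts are a description.

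Small RNAs were higher in Pax5+/- Myd88+/- leukemias. Of 68 small nucleolar and other small RNA genes 28 were called higher and 2 lower, with a median of 0.52. Snord58b, which guides methylation of ribosomal RNA, was at 10.19 to 12.27 in Pax5+/- Myd88+/- leukemias and at 5.64 to 6.70 in Pax5+/- leukemias (difference 5.30 ± 0.30, adjusted p = 5.25e-07). Snord61 was at 11.06 to 12.40 against 5.80 to 7.01 (difference 4.98). Rny1, a Y RNA, differed by 4.26. Gas5, the host transcript of many such RNAs, was higher in 3 of its 4 probesets by 1.27 to 2.14 and by 0.64 in the remaining one. The gap between the groups in Snord58b was wider than the whole range within either group. Terc, the RNA template of telomerase, went the other way, at 8.31 to 10.43 against 11.82 to 13.00 (difference -3.04 ± 0.33, adjusted p = 4.37e-05).

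Of 300 microRNA genes, the host gene Mir17hg included, 2 were called higher and 3 lower. By adjusted p alone 89 were higher and 13 lower, beside 2516 and 2957 of all 19938 genes, and the median difference was 0.09. The mature sequences of the pair with the largest difference each way are given from RefSeq (GRCm38.p6), with the seed, bases 2 to 8, in capitals, because the seed sets the targets. The array reads the locus and does not say whether the precursor or the mature form was bound, and neither gene shares a seed with the other.
miR-505-5p (chrX:60394451-60394473, minus strand): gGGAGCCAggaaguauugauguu
miR-505-3p (chrX:60394416-60394437, minus strand): cGUCAACAcuugcugguuuucu
miR-6516-5p (chr11:117077370-117077391, plus strand): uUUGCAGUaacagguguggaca
miR-6516-3p (chr11:117077412-117077433, plus strand): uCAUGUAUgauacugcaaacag
Mir505 was at 8.31 to 8.59 against 9.95 or more (difference -1.96 ± 0.16, adjusted p = 6.68e-06). Mir6516 was at 10.30 to 11.52 against 8.29 to 8.65 (difference 2.38 ± 0.18, adjusted p = 3.65e-06). Neither overlapped.

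Of 45 histone genes 3 were called higher and 2 lower. H2ac4 was at 12.43 to 13.11 against 9.05 to 10.38, without overlap (difference 3.17 ± 0.23, adjusted p = 3.38e-06), whereas H2bc4 was at 7.17 to 8.92 against 8.88 to 9.79 (difference -1.43 ± 0.36). Without replicate 3 of the Pax5+/- Myd88+/- leukemias 4 histone genes were called lower.

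Of 82 nuclear-encoded subunits of the respiratory chain and ATP synthase 19 were called lower and 1 higher, the median was -0.40 and 63 were below 0. Atp5d, the delta subunit of ATP synthase, was at 10.68, 10.15, 10.99, 10.51, 10.56 and 9.74 against 12.82, 12.76, 12.57, 12.92, 12.62 and 12.83 (difference -2.32 ± 0.17, adjusted p = 3.9e-06). Ndufs7, a subunit of complex I, was at 9.45 to 10.33 against 11.72 to 12.62 (difference -2.28). Both groups were tight and far apart, and sorted WT cells lay with the Pax5+/- leukemias at 12.91 and 12.14. Ndufs5 was the called exception at 1.21.

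In the mitochondrial ribosome 8 of 77 proteins were called lower and 0 higher, with a median of -0.43. Mrpl57 (-2.14 ± 0.13) and Mrpl34 (-2.09 ± 0.18), both of the large subunit, had the largest falls of this family. The count was 5 without Pax5+/- replicate 1 and 12 without Pax5+/- Myd88+/- replicate 3.

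Of 39 proteasome subunits 7 were called lower and 0 higher, with a median of -0.23. Psmb5, the chymotrypsin-like catalytic subunit, was at 9.73, 9.61, 9.63, 9.64, 9.57 and 9.47 against 11.92, 11.49, 11.65, 11.99, 11.73 and 11.91 (difference -2.17 ± 0.09, adjusted p = 6.98e-08). Psmb3, a subunit of the core, differed by -2.17 and -2.34 in its 2 probesets. Cytosolic ribosomal proteins split instead, with 4 of 61 genes called higher, among them Rps21 (1.76), and 2 called lower, among them Rps27l (-1.28).

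**Figure D2:**
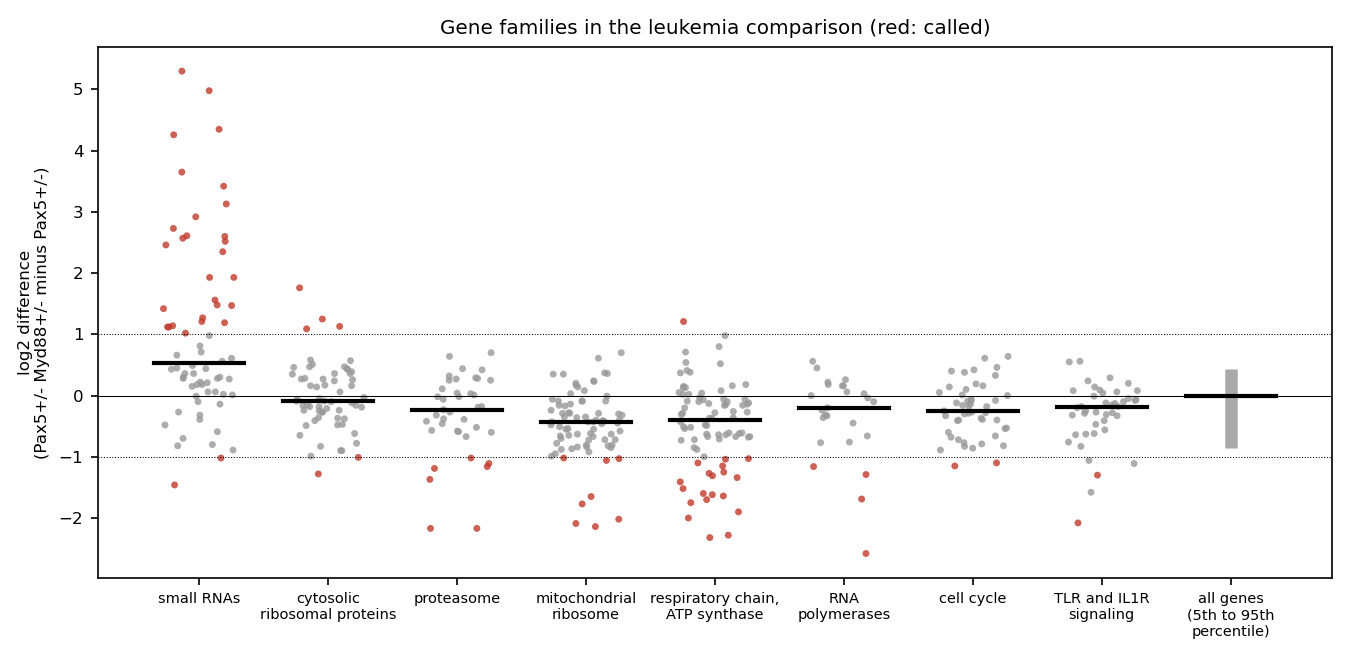
Log2 difference of single genes (points, 1 probeset a gene) in 8 gene groups, with called genes in red, medians as black lines, the 2-fold limits dotted, and the 5th to 95th percentile of all 19938 genes as a grey bar. Small RNAs reach 5.30 above 0, while respiratory chain, mitochondrial ribosome and proteasome genes called lower reach -2.32, and TLR and IL1 receptor genes centre at -0.19.

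Of 25 RNA polymerase subunits 4 were called lower and 0 higher. Polr2f, shared by all 3 nuclear polymerases, was at 8.73 to 10.07 against 11.28 to 12.13 (difference -2.58 ± 0.22, adjusted p = 8.53e-06), and Polr2j, of polymerase II, at 9.12 to 9.90 against 10.71 to 11.51 (-1.69). Neither overlapped. Of 48 cell cycle genes 2 were called lower and 0 higher, the kinases Aurkb (-1.15) and Cdk1 (-1.10). Neither passed the 2-fold rule after quantile normalization. The median of this list was -0.26, and 35 of its genes were below 0. By adjusted p alone 14 were lower and 3 higher, beside 2957 and 2516 of all 19938 genes. Mki67, the marker of cycling cells, was on the higher side with a difference of 0.42 (adjusted p = 0.00509). Of 36 genes of MYC and ribosome biogenesis Srm, the spermidine synthase, was the sole call (-1.17), also lost after quantile normalization. Of 20 Notch pathway genes 1 was called lower and 0 higher, Psenen, a subunit of gamma-secretase, at 10.20 to 11.13 against 12.27 to 12.59 (-1.69 ± 0.13, adjusted p = 4.51e-06). Of 22 heat shock and unfolded protein response genes 2 were called lower and 0 higher, Sdf2l1, a protein of the endoplasmic reticulum, at -1.21 ± 0.23 without overlap and Asns, the asparagine synthetase, at -1.26 ± 0.43, a call lost in 9 of the 12 fits that left out 1 leukemia. Psenen and Sdf2l1 kept their calls in all 12 of these fits. No member was called of 23 Bcl2 family and p53 genes, of 22 glycolysis genes, of 23 chemokine genes or of 23 TGF-beta genes. At p under 0.05 before adjustment, 4 to 6 members of each were lower and 0 to 4 higher, beside 4084 and 3713 of all 19938 genes.

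The promoters of the genes that fell were searched for a CCAAT box (CCAAT) and for an ETS core (CCGGAAG), on both strands, in the 250 bases before each RefSeq start. The ETS core stood in 72 of the 423 promoters found for the 518 genes called lower (17.0%) and in 1503 of 15614 promoters of all genes tested (9.63%). The CCAAT box stood in 39.7% and 35.5%, the NRF1 site in 1.89% and 1.17%, and the median GC content was 58.8% and 56.4%. Polr2f (chr15:79141075-79141324, plus strand) and Kti12 (chr4:108847607-108847856, plus strand; difference -2.25 ± 0.11) are printed as examples. They were picked among the genes called lower because their promoters hold the core, so that they add nothing to these shares. The core is in capitals on either strand and lies close to the start. The 34 respiratory chain, mitochondrial ribosome and proteasome genes called lower had 31 promoters, of which 2 (6.45%) held the ETS core and 0 the NRF1 site.
Polr2f promoter: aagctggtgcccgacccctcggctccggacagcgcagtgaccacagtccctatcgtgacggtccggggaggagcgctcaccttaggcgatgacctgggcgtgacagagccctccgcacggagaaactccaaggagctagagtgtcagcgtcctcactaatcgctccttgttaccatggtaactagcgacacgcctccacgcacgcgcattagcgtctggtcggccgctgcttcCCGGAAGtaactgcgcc
Kti12 promoter: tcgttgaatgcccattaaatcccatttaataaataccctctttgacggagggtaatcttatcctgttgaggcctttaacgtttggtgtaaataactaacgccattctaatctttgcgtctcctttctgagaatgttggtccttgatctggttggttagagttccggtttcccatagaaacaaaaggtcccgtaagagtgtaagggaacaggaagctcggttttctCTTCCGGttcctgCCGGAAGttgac

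Gene length moved with the lower calls. The median span was 9.87 kb over 511 genes called lower and 27.8 kb over 38 genes called higher, beside 20.6 kb over 18215 genes in all. These medians cover 511 of the 518 genes called lower but 38 of the 74 called higher. The shortest gene kept spanned 0.071 kb. Shorter small RNAs such as Snord58b (chr18:75001068-75001122) were therefore left out here and in the shares that follow. Over 4 equal groups of genes from the shortest span to the longest, 5.01%, 3.82%, 1.49% and 0.9% were called lower. Among the genes kept, the shares called higher were 0.307%, 0.0878%, 0.242% and 0.198%, with no steady order. The part of gene length in the family differences was not tested.

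The rises with the largest values mostly rested on 1 probeset. Hibadh, an enzyme of valine breakdown, was at 7.96 to 10.66 against 5.57 to 6.88 in 1 probeset (difference 3.47), whereas its brighter probeset was at -0.72 (adjusted p = 0.000786). Top2a, the topoisomerase of dividing cells, differed by 2.92 in 1 probeset and by 0.14 (adjusted p = 0.421) in the brighter. Tns1, a protein of focal adhesions, differed by 2.85 in 1 probeset and by -0.21 to 0.24 in the 5 others, and Fut11, a fucosyltransferase, by 2.85 and -0.28. The other rises of this rank included Usp17ld, at 9.19 to 9.72 against 6.73 to 7.53 (difference 2.22), and Cox17, a copper chaperone of cytochrome oxidase, at 8.38 to 9.43 against 6.42 to 7.44 (difference 1.64).

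The same split held for Macrod2 (1.89 against -0.01 to 0.44), Aldh3b3 (1.69 against -0.04 and 0.13), Cox7a2l (1.56 against 0.37) and Rpl27, whose brightest probeset was at -1.01 while 3 others were at 1.07 to 1.60. Among the largest falls, Zcrb1, a protein of the minor spliceosome, was at 9.12 to 10.26 against 11.57 to 12.16 (-2.21), Gabarapl2 was at -2.34 in 1 probeset and 0.18 in a dim second one, whereas Uqcc2, an assembly factor of complex III, was lower in both (-2.16 and -1.06). Of 33 genes with a probeset called higher and at least 1 more probeset, 11 (33.3%) had another probeset called the same way, and of 88 such genes called lower, 37 (42%) had. A probeset can bind near-identical copies of a gene, and positions of single probesets were not analysed here, so that these genes remain uncertain.

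Arrays outside the comparison took sides on the same probesets. Of the 1054 called probesets, 999 (94.8%) had a mean over the 16 proB cultures nearer to the Pax5+/- Myd88+/- leukemias than to the Pax5+/- leukemias, beside 74.3% of all probesets. Snord58b was at 10.25 to 11.31 and Psmb5 at 9.15 to 10.09 over the 16 cultures. Sorted WT cells took the other side, with 339 of 359 probesets called higher (94.4%) and 499 of 695 called lower (71.8%) nearer to the Pax5+/- leukemias.

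The difference between cultured and sorted WT cells, neither of which carries a mutant allele, had the sign of the leukemia difference in 981 of the 1054 called probesets (93.1%) and in 70.4% of all probesets. Hybridization days were not given in the sources used here. The part of array processing in the 1054 calls was not tested. Myd88 itself shared this order, with sorted WT cells at 10.01 to 10.13 and cultured WT cells at a mean of 9.46.

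**Figure D3:**
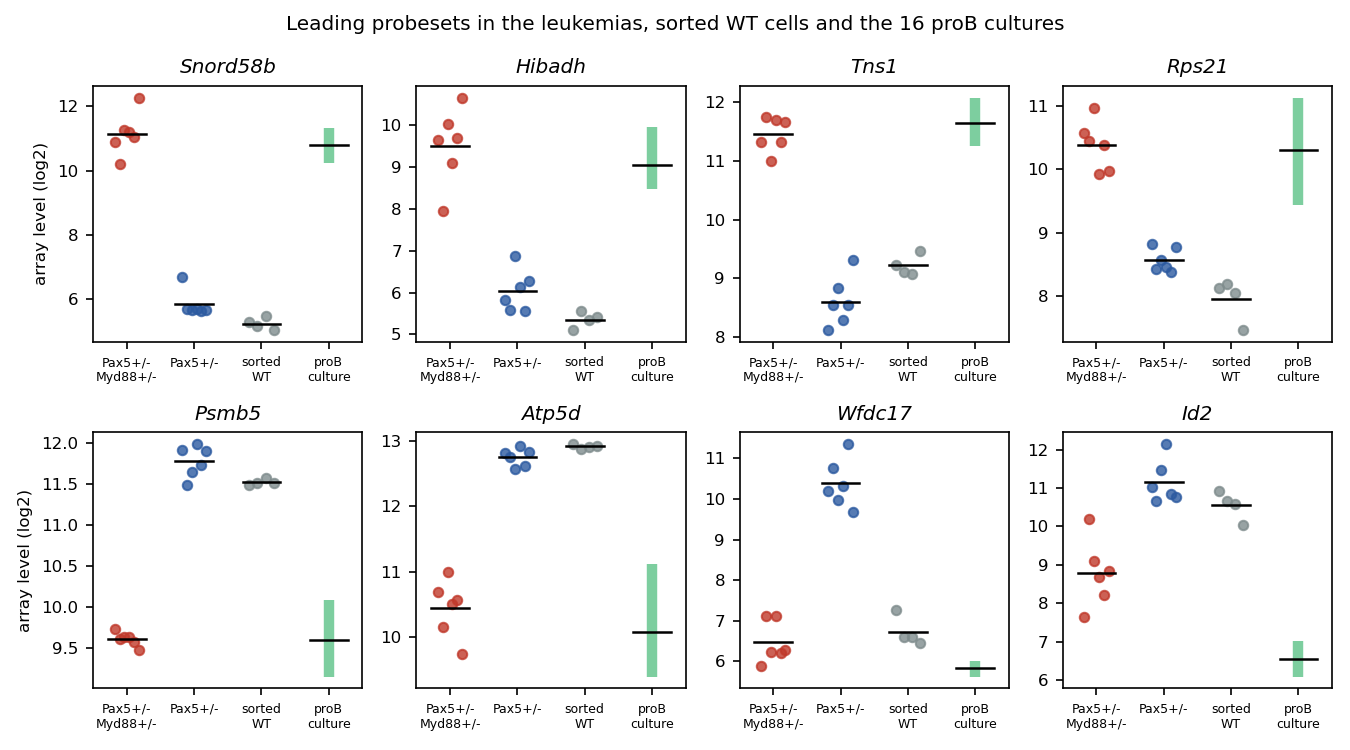
Array level (log2) of 8 leading probesets in Pax5+/- Myd88+/- leukemias (red, n = 6), Pax5+/- leukemias (blue, n = 6), sorted WT cells (grey, n = 4) and the range over the 16 proB cultures of all genotypes (green bar), with means as lines. In 6 of the 8 the cultures lie with the Pax5+/- Myd88+/- leukemias and the WT cells nearer to the Pax5+/- leukemias, while Wfdc17 is high in the Pax5+/- leukemias alone and Id2 is lower in the cultures than in any leukemia.

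Wfdc17 had the largest fall. It encodes a small secreted protein of activated macrophages. Wfdc17 was at 5.88, 7.11, 6.23, 7.11, 6.21 and 6.27 in Pax5+/- Myd88+/- leukemias and at 10.19, 10.76, 9.98, 10.32, 11.35 and 9.69 in Pax5+/- leukemias, without overlap (difference -3.91 ± 0.30, adjusted p = 4e-06). Sorted WT cells were at 6.72 and the cultures at 5.62 to 6.00, so that the Pax5+/- leukemias stood above every other group shown. Cd34, a surface protein of progenitors and vessels, had a similar order, at 6.04 to 6.81 against 7.02 to 9.18 (difference -1.93 ± 0.34, adjusted p = 0.00128), with WT cells at 6.21.

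Markers of other marrow cells were lower for some genes in Pax5+/- Myd88+/- leukemias. In the monocyte and macrophage list 1 of 23 genes was called lower (Clec7a, a fungal receptor, -1.28), the median was -0.59, and the mean of the list was 6.66 to 8.76 against 7.65 to 8.51. The count was 4 without Pax5+/- Myd88+/- replicate 4, 3 without replicate 2 of that group, 2 without Pax5+/- replicate 3 or 6, 7 with all 32 arrays in the fit and 0 between the 2 and 2 leukemias whose animal codes begin with W. The Clec7a call was lost without the 4 leukemias of lowest B-lineage markers, described further on. Csf1r, the receptor that defines these cells, went the other way (1.19, adjusted p = 0.241), and Adgre1, another of their markers, was low in every leukemia, at 5.16 to 7.01. All 20 granulocyte genes were below 0 with a median of -1.22, but 1 was called (Mmp9, a matrix protease, -2.15), and the list mean ran from 6.35 to 9.34 against 6.83 to 11.05. The count was 2 when replicate 4 of the first group or replicate 1 or 6 of the second was left out, and 6 with all 32 arrays.

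In the platelet list 3 of 11 were called lower, among them Ppbp (6.37 to 11.98 against 11.25 to 13.26, difference -3.36) and Gp9 (-2.25), and the list mean was 6.53 to 9.54 against 7.92 to 10.28. That count was 5 without Pax5+/- Myd88+/- replicate 2. In the stromal and endothelial list 4 of 21 were called lower, among them Emcn (-2.13) and Igfbp7 (-1.95), with a list mean of 6.81 to 8.89 against 7.77 to 8.75. Without Pax5+/- Myd88+/- replicate 2, which had the highest stromal mean, that count was 9, and it was 2 without most of the other leukemias. No marker of T, NK, erythroid, plasma or plasmacytoid dendritic cells was called, with 3, 0, 0, 0 and 0 higher and 0, 0, 1, 1 and 0 lower at p under 0.05 before adjustment. Over all 19938 genes that threshold gave 3713 higher and 4084 lower. The part of other cells in Wfdc17, Cd34, Ly96 and Il1a was not tested.

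MHC class II presentation had a median of -0.67 over 11 genes, with 2 called lower and 0 higher. Ifi30, a lysosomal thiol reductase, was at 7.03 to 11.25 against 9.15 to 11.64 (-2.27), and H2-DMa, which loads peptides, at 6.66 to 7.91 against 8.64 to 10.09 (-1.90 ± 0.29, adjusted p = 0.00049). H2-DMa did not overlap, and Ifi30 lost its call in 6 of the 12 fits that left out 1 leukemia.

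**Figure D4:**
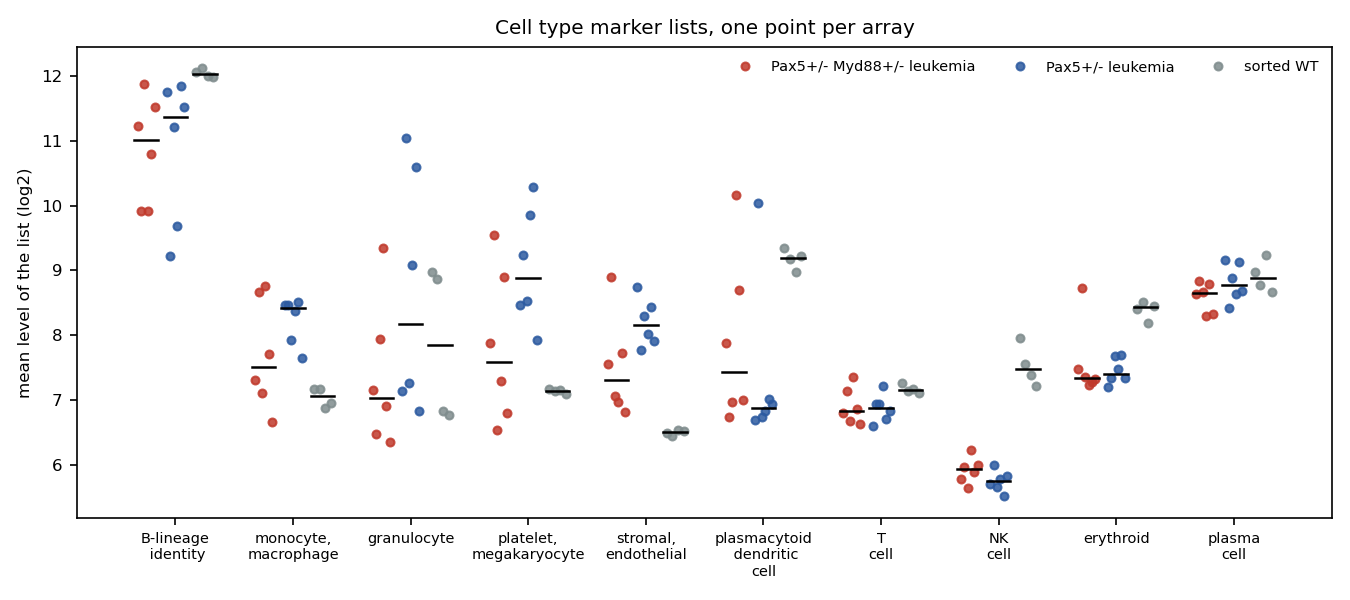
Mean log2 level of each cell type marker list (10 lists on the horizontal axis), a point per array, for Pax5+/- Myd88+/- leukemias (red, n = 6), Pax5+/- leukemias (blue, n = 6) and sorted WT cells (grey, n = 4), with medians as lines. Monocyte, granulocyte, platelet and stromal lists have lower medians (7.51, 7.03, 7.59 and 7.31 against 8.42, 8.17, 8.88 and 8.16) in Pax5+/- Myd88+/- leukemias with overlapping ranges, and 4 leukemias, 2 of each genotype, lie lowest in the B-lineage list.

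The leukemias varied more within a genotype than the WT cells did. The median SD of a probeset was 0.155 in Pax5+/- Myd88+/- leukemias, 0.17 in Pax5+/- leukemias and 0.097 in sorted WT cells. The first principal component held 39% of the variance and separated the genotypes fully, and the second, with 15.1%, set replicate 4 of the first group and replicate 2 of the second (42.7 and 46.9) apart from the rest.

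Replicates 2 and 4 of both groups had the lowest mean over 10 B-lineage markers, 9.91, 9.92, 9.22 and 9.68, while the other 8 leukemias had 10.80 or more. Rag1 was 6.35, 6.39, 6.40 and 5.65 in these 4 and 8.05 to 11.23 in the other 8. Igll1, the lambda5 chain of the pre-B-cell receptor, was 8.51, 9.56, 9.95 and 8.36 in these 4 and 11.51 or more in the other 8. Without them, an alternative chosen after seeing the data, 382 probesets were called higher and 701 lower, and Myd88 differed by -1.48.

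The genes with the largest SD within genotypes showed a similar scatter. Siglech, a lectin of plasmacytoid dendritic cells, was at 10.63 to 12.34 in Pax5+/- Myd88+/- replicates 1, 4 and 5 and at 12.31 in Pax5+/- replicate 2, and at 6.06 to 8.56 in the other 8. Gria2, a glutamate receptor subunit, was at 10.08 or more in Pax5+/- Myd88+/- replicates 1 and 4 and Pax5+/- replicates 2 and 4. Klri1, a receptor of NK cells, was at 9.33 or more in Pax5+/- Myd88+/- replicates 4 and 5 and Pax5+/- replicates 2 and 4. The mean of the NK list was 5.64 to 6.23 in the first group and 5.51 to 5.99 in the second. Kcnma1, a potassium channel, had the largest SD (3.04) and ran from 6.19 to 14.09 and from 5.78 to 13.99. Mrgpra1, a receptor of sensory neurons, was at 9.54 or more in replicates 1 and 4 of the first group and 2, 4 and 5 of the second. Mmp8, a collagenase of neutrophils, was at 10.21 in replicate 4 of the first group and at 8.84 to 11.66 in replicates 2, 4 and 5 of the second. H2-Ea, an MHC class II chain, was at 12.76 and 10.49 in Pax5+/- replicates 4 and 6 and at 5.88 to 6.06 in the other 4 of that group. Xist was high (12.49 to 12.80) in 3 Pax5+/- Myd88+/- leukemias, at 9.72 in Pax5+/- replicate 1 and low in the other 8, so that the sexes were unequally spread. Leaving out genes on X and Y left 1028 calls.

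In healthy proB cells the genotype pair also differed in sex-linked genes. Between the cultures of Pax5+/- Myd88+/- and Pax5+/- mice Xist differed by 6.72 (adjusted p = 7.88e-15) and Kdm5d by -3.79, so that sex and genotype cannot be told apart in this comparison, Myd88 included. The cultures of Pax5+/- Myd88+/- and Pax5+/- mice differed in 235 probesets (0.812%) and 173 genes (0.868%), of which 12 were also called in the leukemias, 6 in the same direction and 6 in the opposite one. Of the 1054 leukemia calls, 45.3% had the same sign in the cultures, beside 51.4% of all probesets. The 2 comparisons share no array.

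Of the 6 in the same direction, 5 named 1 gene, and these were called lower in both. Gatm, which makes the creatine precursor, was at -1.78 in the leukemias and -1.78 in the cultures, and Churc1, a zinc protein of embryonic signaling, at -1.24 and -1.60. Plscr1, a phospholipid scramblase that interferon induces, was at -1.13 and -1.44, and Atrnl1 at -1.26 and -2.18. Nt5dc2 was at -1.09 and -2.65, the sole of the 5 whose differences were unequal by the interaction test (1.56 ± 0.34, adjusted p = 0.00413). The leukemia calls of Atrnl1 and Plscr1 were lost in 9 and 7 of the 12 fits that left out 1 leukemia, and that of Nt5dc2 without Pax5+/- Myd88+/- replicate 2 (-0.88) or 6. The brighter probeset of Plscr1 was at -0.81 (adjusted p = 0.14). Cultures with no functional Myd88 allele had Atrnl1, Churc1 and Plscr1 at means of 8.26, 8.56 and 8.28. Pax5+/- cultures were near these, at 8.58, 8.34 and 7.94. Nt5dc2 was at 9.65 without functional Myd88, between Pax5+/- Myd88+/- (7.92) and Pax5+/- (10.56) cultures. Gatm was at 6.1 without functional Myd88, at 6.22 in both WT and Pax5+/- Myd88+/- cultures and at 8 in Pax5+/- cultures. The part of Myd88 dose in these 5 differences was not tested. The 6 called in opposite directions are named after their values were seen. Dntt (2.51 in the leukemias and -2.31 in the cultures) and Syne2, a nuclear envelope protein (1.45 and -1.73), were higher in the leukemias. Rgs18 (-1.26 and 1.12), Tmem176b (-1.33 and 1.10), Lpcat2 (-1.15 and 1.68) and Mmp13, a collagenase (-1.68 and 1.38), were lower.

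Tlr7 and Tirap, the adaptor beside Myd88, were called in the cultures (2.28 and -1.35) and not in the leukemias (-0.18 and -0.47). Sex and genotype cannot be told apart in the culture comparison, these genes included.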

How the data were processed

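The authors hybridized total RNA to Affymetrix mouse gene 1.0 ST arrays and summarized it per gene with the RMA method in the Transcriptome Analysis Console, which the submitters' processing notes name. The deposited values are log2 levels for 28944 probesets in 32 arrays, of which 21789 name 1 gene, 1621 several and 5534 none in the platform annotation. Groups come from the titles. Members, gene lists and families were chosen with earlier results of these data known. For a gene with several probesets, that with the highest mean over the 32 arrays was used.

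The 6 and 6 leukemias were compared with limma 3.58.1 in R 4.3.3 (lmFit and eBayes on the 12 arrays), with Benjamini-Hochberg adjustment over 28944 probesets and a call at an adjusted p under 0.05 and a log2 difference over 1. RMA sets a shared distribution on all arrays, so that a difference is relative to the array, and levels near 4.84, the median of 1223 olfactory and vomeronasal receptor probesets, are background. Genes named were the 12 largest rises and 12 largest falls without overlap (1 gene named; no small RNA, microRNA, histone, mitochondrial, immunoglobulin, T-cell receptor, olfactory, vomeronasal or predicted genes), every called member of the Toll-like receptor, NF-kB, pre-B-cell receptor, B-lineage factor, V(D)J and JAK-STAT lists, the 2 largest calls of each other list, Myd88, Pax5, Jak1, Ptpn11 and Nras, genes called the same way in the cultures and the 8 of largest SD. Uncalled list members, and the family, microRNA and further small RNA genes, were named beyond this rule after their values were seen. Alternatives were other sets of arrays in the fit, centring, quantile normalization, a filter at a mean of 6, a replicate block, limma-trend, array weights, the study's threshold, a plain t-test, no sex-linked probesets and leaving out leukemias. The script was tested on simulated data. Each mouse gave 1 array, and replicate numbers were not treated as pairs in the main fit. Correlations of the deviations of same-numbered leukemias ranged from -0.155 to 0.521, the highest for replicate 6. They cannot settle whether animals were paired. The number of arrays limits the precision. Promoters and microRNAs are from RefSeq, GRCm38.p6.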

Additional observations from a re-analysis of the deposited data

Results flagged for a closer look

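In 17 of the 156 groups of 6 leukemias tested for the named probesets, 1 leukemia stood far from the other 5, where chance, at about 1 in 20 groups, gives 7.8. In the Pax5+/- Myd88+/- group these were Cox17 in replicate 3 (9.43), Psmb3 in replicate 3 (10.75), Il1a in replicate 2 (6.88), Ifitm3 in replicate 6 (8.38), Socs1 in replicate 3 (7.58), Srm in replicate 2 (9.43), Asns in replicate 2 (7.62), H2-DMa in replicate 6 (6.66), Mmp9 in replicate 4 (9.65), Snord61 in replicate 6 (12.40) and Nras in replicate 4 (9.83). In the Pax5+/- group they were Ifi30 in replicate 6 (9.15), Emcn in replicate 2 (6.97), Snord58b in replicate 1 (6.70), Pax5 in replicate 2 (7.69), Jak1 in replicate 1 (11.27) and Xist in replicate 1 (9.72). The rule is relative to the range, so that a flagged gap can be small, as for Socs1 (7.58 against 7.71 to 7.78) and Nras (9.83 against 10.01 to 10.07).

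The Xist value belongs to a Pax5+/- leukemia whose Y-linked genes were low (Kdm5d 5.05), whereas the other 5 of its group had Kdm5d at 8.59 to 8.97. The Pax5 value of 7.69 was that of 1 of the 4 leukemias with the lowest B-lineage markers.

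Nt5dc2 differed between leukemias and proB cultures in the size of its genotype effect, by 1.56 in the interaction test.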

How the results depend on the processing

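All of the 1054 calls that could be fitted kept their sign under each alternative. The counts of probesets called higher and lower ranged over 347 to 382 and 580 to 782 when 1 leukemia was left out, and Myd88 over -1.41 to -1.18. With replicate number as a block (replicate block) 353 were called higher and 704 lower, the calls of 5 of the 70 named probesets were lost, and TLR and IL1 receptor genes called lower numbered 4 in place of 2. After quantile normalization without small RNA, microRNA, histone and unnamed probesets, with 22983 probesets tested, 201 were called higher and 378 lower, the difference of Nras turned to 0.12 Myd88 was at -1.09, and 9 of 64 named probesets lost their call (Gadd45b, Socs1, Aurkb, Cdk1, Srm, Asns, Igfbp7, Atrnl1 and Nt5dc2), which left 0 calls in the cell cycle list. Between the 2 and 2 leukemias whose animal codes begin with W, 181 were called higher and 521 lower, with Myd88 at -1.71 (adjusted p = 0.0374), and 29 of 70 named probesets lost their call. Of the 506 genes measured in the pathway lists, without the families and cell type lists, 2 were called higher. That count was 5 with 32 arrays in the fit, 5 after quantile normalization and 4 with array weights. It was 0 with the t-test, 1 with W codes and 0 to 3 when 1 leukemia was left out. The Pax5 difference of -0.20 ranged from -0.86 to 0.14 over the fits that left out 1 leukemia, with 0.01 and 0.06 among them. Lists without a call by limma had none by the t-test. The causes were not tested beyond the fewer probesets and arrays of these fits.

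A single platform, 6 leukemias a group and unstated processing days limit the comparison, and levels near background have no order.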
